A study of Mus musculus with 24 samples.

Results

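Genes of glycolysis and of the cellular response to low oxygen were followed in N1E-115, a mouse neuroblastoma line with features of sympathetic neurons that is grown as a neuronal model, and whose labels give brain as tissue of origin. The set holds 45 genes of the 27597 gene names on the array. They were chosen by name with earlier results of these data known, so shares set against all genes are descriptive. The brightest of a gene's probes stood for it, and older symbols were accepted (the files call Kdm3a Jmjd1a and Mgarp 4930583H14Rik, and Ero1l is now named Ero1a). The study compared 3 lines. WT is the untransfected line. TO and OT were transfected with fusions of transcobalamin, the blood carrier of cobalamin (vitamin B12), and oleosin, a plant protein that anchors in lipid membranes: the labels describe TO as the N-terminal fusion, with high affinity for cobalamin, and OT as the C-terminal fusion, with no detectable cobalamin binding. Cells of every line came either from proliferation medium (p, 10% fetal calf serum) or from differentiation medium (d, 2.5% serum and 1.25% DMSO); the DMEM of both held 4.5 g/L glucose. No group was labelled as grown at low oxygen. The 6 groups WT-p, TO-p, OT-p, WT-d, TO-d and OT-d had 4 samples each, 24 in all, on 12 two-colour Agilent arrays that carried 2 samples each. No line with an empty vector was among the groups, nothing states how many clones stand behind TO and OT, and serum and DMSO changed together, so their parts cannot be told apart.

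Glycolysis turns glucose into pyruvate in the cytosol, and lactate dehydrogenase turns pyruvate into lactate that leaves the cell through monocarboxylate transporters. Cells adjust this pathway to oxygen through the hypoxia-inducible factors (HIF): prolyl hydroxylases (the Egln proteins) mark the HIF alpha subunits Hif1a and Epas1 for degradation while oxygen is present, and when oxygen is short the alpha subunit pairs with Arnt and binds DNA at a short core, ACGTG or GCGTG. Classical targets are glucose transporters, most glycolytic enzymes, the kinase Pdk1, the mitophagy receptors Bnip3 and Bnip3l, and secreted factors such as Vegfa and Adm. Pdk1 restrains the use of pyruvate in mitochondria. In nervous tissue some steps have isoforms of their own, among them the aldolase Aldoc and the neuron-specific enolase Eno2. HIF itself is controlled mainly at the protein level, which these arrays do not read.

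Levels are log2 intensity after background correction and normalization, so a difference of 1 is 2-fold, and levels of different probes are not comparable. Of a sample's probes, 54.3% to 65.9% were well above background, the median raw intensity was 66.75 to 165.6, and no member was saturated; the number of arrays limits the precision. A gene was tested if any group had it well above background in each of its 4 samples. This held for 44 of the 45 members. The exception, Epas1, was well above background in 10 of 24 samples, with levels between 6.04 and 7.35. Ldhb, a lactate dehydrogenase subunit, passed but was well above background in 17 of 24, and the other 43 were so in all 24. Fold changes are log2 values with their standard error from 1 limma model over all 24 samples, with the array as a block and the dye as a term, and calls were made where p, adjusted by Benjamini and Hochberg's method across 16239 tested genes, was under 0.05. Because much of the transcriptome was called in these comparisons, the share of all tested genes called is given beside each count. The comparisons share groups, so they are not independent of each other. The labels give 4 biological replicates a group without saying whether these were separate cultures, and p-values then measure only the spread between these samples. In each group the description labels give 1 number both plain and with a b; what the b means is not stated, and totals of calls that move over 1.5 times without the b samples are given. In bulk RNA a lower share of cells that express a gene and less of its RNA per cell cannot be told apart.

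All 11 markers of catecholaminergic neuroblastoma cells that were used, Th and Dbh among them, were well above background in all 24 samples. Their mean level was 13.74 to 13.92 in OT-d samples and 13.01 to 13.44 in the other groups. Of 7 markers of blood and endothelium, none was above background throughout, and Ptprc, Itgam and Cdh5 were so in no sample. Of 8 glia markers 4 were above background throughout (S100b, Sox10, Mbp and Mag), while Gfap was so in 5 samples and Aqp4 in 2, and the mean over the list was highest in WT-d, at 7.57 to 7.66 against 7.13 to 7.57 elsewhere. Of 8 fibroblast and smooth muscle markers 3 were above background throughout (Col1a2, Pdgfrb and Acta2), and their mean was likewise highest in WT-d, at 7.83 to 8.00 against 7.59 to 7.82. The part of these shifts in the results was not tested.

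A feature of the controls comes before all results that use them. The 4 WT-p samples fell into 2 pairs for these genes. Replicates 1 and 3 carry the number 1 in the description labels (1b and 1), while replicates 2 and 4 carry the numbers 2 and 3. Of the 43 members measured in all 4 samples, 32 were higher in both replicates 2 and 4 than in both others, against 24.8% of all genes, and 1 was lower, against 30.2%. The gap was at least 2-fold for 9 members (20.9%), against 0.722% of all genes. For Bnip3 the replicates 1 to 4 read 12.64, 13.95, 12.61 and 13.93, and for Aldoc they read 10.54, 12.73, 10.30 and 12.39. Replicates 3 and 4 were on the same slide in the same dye, and Bnip3 and Aldoc still differed by over 2-fold between them. Values against WT-p use all 4 samples unless stated. The counts of each comparison with WT-p, and those members of about 2-fold whose call ended, are also given without replicates 1 and 3 and without replicates 2 and 4. The last of these sets was added after the data had been seen.

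The members' means were most often highest in WT-d and lowest in OT-p, as the heat map of all samples shows. Of the 44 tested, 24 had their highest group mean in WT-d and 11 in OT-d, which is 54.5% and 25% of them, against 27.2% and 18.0% of all tested genes. The lowest mean was in OT-p for 28 members, or 63.6%, against 29.5% of all genes. The effectors Ndrg1, Mgarp, Bnip3 and Adm and the enzymes Aldoc, Eno2 and Pdk1 spanned the widest ranges, with group means up to 4.68 log2 units apart for Ndrg1 and 4.33 for Aldoc. Hif1a ran the other way, with its lowest mean in OT-d.

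**Figure D1:**
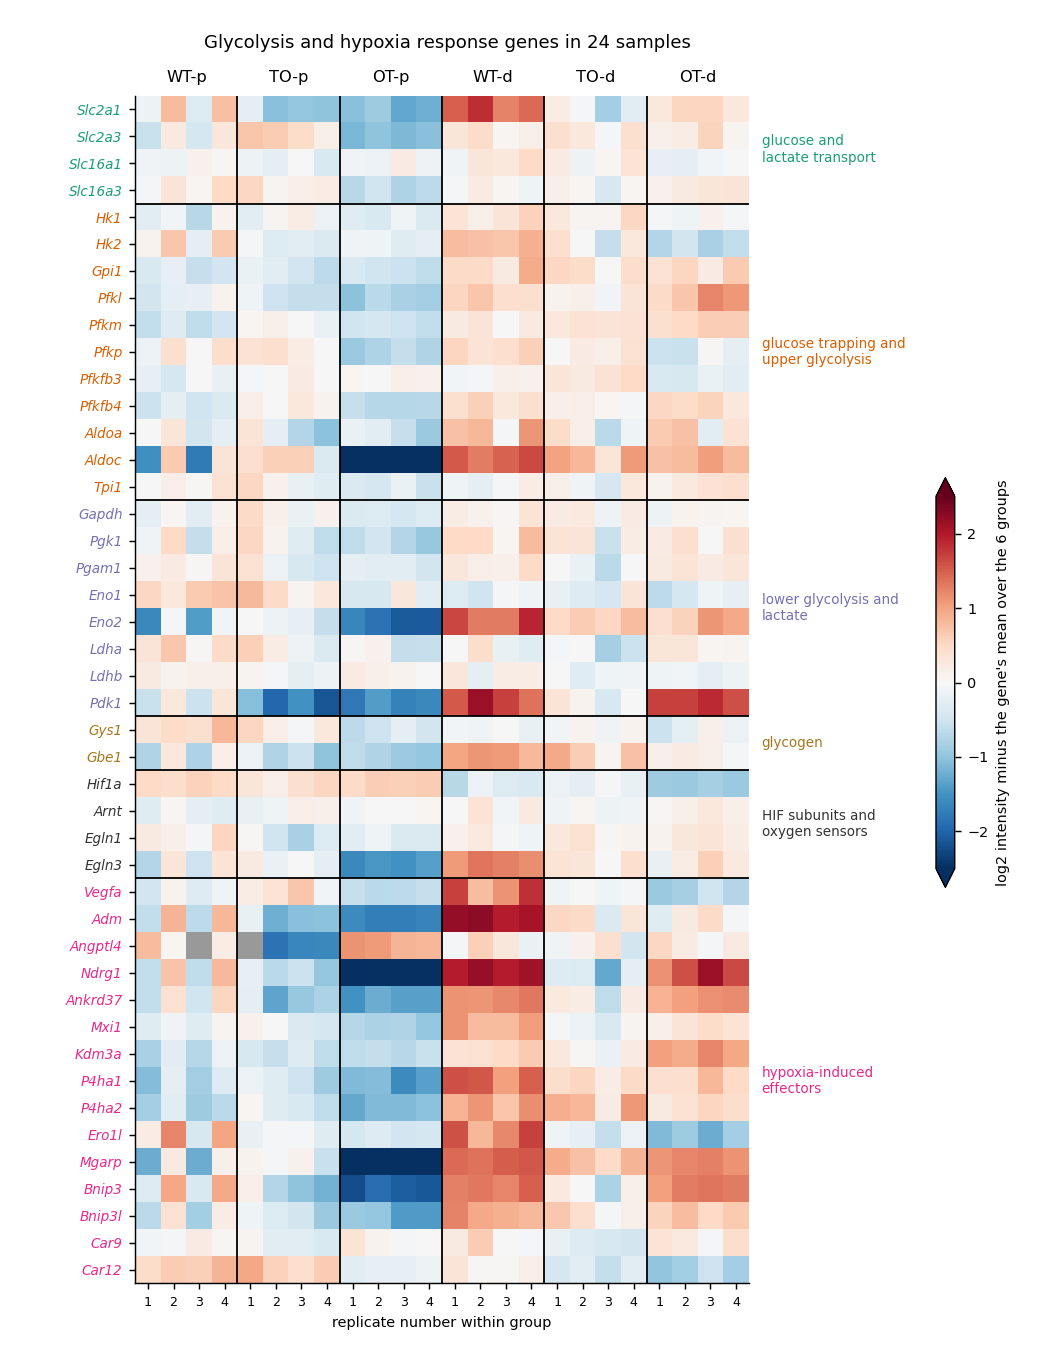
Heat map of the 44 tested members (rows, grouped and coloured by role) in the 24 samples (columns, by group and replicate number); colour is log2 intensity minus the gene's mean over the 6 groups, cut at 2.5 either way, and grey marks spots left out for Angptl4. OT-p is the darkest blue block for Aldoc, Ndrg1, Mgarp and Bnip3, WT-d is red for most rows, and WT-p replicates 1 and 3 are bluer than replicates 2 and 4.

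Promoters from RefSeq on GRCm38.p6 (250 bases before to 50 after a start site) were at hand for 40 of the 45 members, 57 promoters in all; Slc2a3, Epas1, Angptl4, Ndrg1 and Bnip3l had none in the table. The HIF core was searched as ACGTG and GCGTG on both strands. The motifs differ in their first base, and the palindrome CACGTG counts on each. A core was present in 75.4% of the members' promoters and in 43.8% of all 32851 promoters of that length, and 50.9% and 19.6% held ACGTG itself. By gene, 34 of 40 had a core, and 15 of 40 (37.5%) had 3 or more in a promoter against 10.2% of all genes. Base composition was not matched, so this is a description of the letters only. The sequences shown, 5′ to 3′ with the cores of either strand in capitals, are the 250 bases before the start for the 5 members with a promoter and the largest rise in OT (Mgarp chr3:51396548-51396797 on the minus strand, Aldoc chr11:78322823-78323072 on the plus strand, Bnip3 chr7:138909507-138909756 on the minus strand, Pdk1 chr2:71872974-71873223 on the plus strand, Eno2 chr6:124769674-124769923 on the minus strand).
Mgarp: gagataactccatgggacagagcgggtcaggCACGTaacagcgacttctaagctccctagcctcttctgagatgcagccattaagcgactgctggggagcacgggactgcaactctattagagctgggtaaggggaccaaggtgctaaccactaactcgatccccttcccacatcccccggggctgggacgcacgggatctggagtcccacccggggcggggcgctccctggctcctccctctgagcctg
Aldoc: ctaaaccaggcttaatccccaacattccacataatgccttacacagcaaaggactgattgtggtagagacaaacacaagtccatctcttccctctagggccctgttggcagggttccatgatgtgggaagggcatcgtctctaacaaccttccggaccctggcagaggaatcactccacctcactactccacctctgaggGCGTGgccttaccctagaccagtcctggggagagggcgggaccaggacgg
Bnip3: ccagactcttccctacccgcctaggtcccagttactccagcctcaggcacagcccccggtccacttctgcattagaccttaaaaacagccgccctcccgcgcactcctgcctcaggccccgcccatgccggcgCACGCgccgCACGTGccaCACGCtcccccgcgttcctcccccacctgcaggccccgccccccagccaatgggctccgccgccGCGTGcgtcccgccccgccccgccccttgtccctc
Pdk1: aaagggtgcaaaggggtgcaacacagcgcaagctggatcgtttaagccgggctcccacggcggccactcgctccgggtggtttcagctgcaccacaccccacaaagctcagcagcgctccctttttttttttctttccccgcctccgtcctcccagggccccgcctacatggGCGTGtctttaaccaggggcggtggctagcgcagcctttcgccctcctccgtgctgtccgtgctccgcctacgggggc
Eno2: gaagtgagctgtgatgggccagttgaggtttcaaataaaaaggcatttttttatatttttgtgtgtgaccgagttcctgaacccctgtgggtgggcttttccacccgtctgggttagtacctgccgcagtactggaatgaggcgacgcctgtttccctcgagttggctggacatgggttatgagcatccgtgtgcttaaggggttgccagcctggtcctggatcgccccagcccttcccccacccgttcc
For Aldoc and Pdk1, which had 2 promoters each, the promoter with the most cores was the one printed, so this choice favoured cores. A core was present in 2 promoters of Aldoc and in 1 of Pdk1. The printed stretch held 1 core each in Mgarp, Aldoc and Pdk1, 5 in Bnip3, a pair of them overlapping on opposite strands, and none in Eno2, whose rise in OT was 2.80. That no core was found says only that these letters are not in this window.

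Among the transporters, Slc2a1 (the general glucose transporter GLUT1) was higher in WT than in both fusion lines, and Slc2a3 (the high-affinity neuronal transporter GLUT3) was lowest in OT-p. Slc2a1 read 12.62, 13.54, 12.42 and 13.50 in WT-p, 12.53, 11.70, 11.79 and 11.74 in TO-p and 11.70, 11.87, 11.46 and 11.54 in OT-p. In the other medium it read 14.24, 14.60, 13.99 and 14.16 in WT-d, 12.94, 12.72, 11.91 and 12.48 in TO-d and 13.01, 13.29, 13.29 and 13.02 in OT-d. Every WT-d sample lay above every sample of the other groups. Slc2a3 read 13.75, 14.53, 13.88 and 14.59 in WT-p, 15.00, 14.94, 14.77 and 14.45 in TO-p and 13.16, 13.31, 13.18 and 13.26 in OT-p. In differentiation medium it read 14.62, 14.77, 14.36 and 14.46 in WT-d, 14.71, 14.58, 14.28 and 14.71 in TO-d and 14.44, 14.49, 14.86 and 14.37 in OT-d. The OT-p samples were below all others, and the 3 groups in differentiation medium overlapped. Slc2a1 rose with the medium in WT (1.31 ± 0.23, adjusted p = 2.5e-05), TO (0.53 ± 0.21, adjusted p = 0.043) and OT (1.50 ± 0.20, adjusted p = 6.3e-07). The change of Slc2a3 in WT, 0.38 with all samples, was 0.01 (adjusted p = 0.973) without WT-p replicates 1 and 3, and a dimmer probe gave -0.10. Slc16a3, the lactate exporter MCT4, was lower in OT-p (14.92 to 15.20) than in WT-p (15.64 to 16.18) and TO-p (15.76 to 16.20), without overlap. The carrier Slc16a1 (MCT1) stayed between 12.95 and 13.84 in all samples, with no called difference between the lines in proliferation medium.

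In upper glycolysis Aldoc had the widest range. Aldoc read 10.54, 12.73, 10.30 and 12.39 in WT-p, 12.49, 12.66, 12.67 and 11.72 in TO-p and 9.40, 9.29, 9.03 and 9.20 in OT-p. In differentiation medium it read 13.60, 13.36, 13.54 and 13.72 in WT-d, 13.07, 12.90, 12.37 and 13.14 in TO-d and 12.81, 12.87, 13.11 and 12.86 in OT-d. The 4 OT-p samples were below all 20 others, and WT-p replicates 1 and 3 lay between them and the rest. The other aldolase, Aldoa, was at 0.16 ± 0.19, adjusted p = 0.509 for TO-p against OT-p, which was not called, and rose with the medium in WT (0.99 ± 0.20, adjusted p = 0.00016) and OT (1.02 ± 0.18, adjusted p = 2.4e-05). Its samples spread widely within groups, from 16.55 to 17.92 in TO-p. Cy5 lay above Cy3 in every group except WT-d, where replicate 4, in Cy3, was highest (18.68). Glucose phosphate isomerase, Gpi1, read 16.09, 16.26, 15.88 and 15.98 in WT-p and 16.95, 16.94, 16.69 and 17.39 in WT-d, and 16.09, 15.96, 15.93 and 15.84 in OT-p and 16.83, 17.00, 16.67 and 17.11 in OT-d. It rose with the medium in all lines, without overlap in any, by 1.04 in WT, 0.75 in TO and 1.09 in OT, and no pair of lines in the same medium was called apart.

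Phosphofructokinase sets the pace of upper glycolysis, and its subunits differed. The liver-type subunit Pfkl read 11.21, 11.57, 11.44 and 11.38 in OT-p and 12.73, 12.93, 13.46 and 13.33 in OT-d, without overlap (1.70 ± 0.12, adjusted p = 2.6e-11). The muscle-type subunit Pfkm read 12.92, 12.99, 12.90 and 12.80 in OT-p and 13.82, 13.92, 14.03 and 14.03 in OT-d, also without overlap. Pfkm rose in every line (0.71, 0.27 and 1.07 in WT, TO and OT), while the platelet-type subunit Pfkp separated TO-p, at 11.50, 11.56, 11.32 and 11.12, from OT-p, at 10.20, 10.37, 10.53 and 10.39 (log2 1.07 ± 0.14, adjusted p = 5.5e-07). Other Pfkp probes gave -0.22 to 0.02 where the chosen one gave -0.94 for OT-p against WT-p. The 2 bifunctional regulators of the fructose bisphosphate signal went apart in OT, where Pfkfb4 rose from 11.35, 11.20, 11.21 and 11.22 to 12.44, 12.38, 12.47 and 12.18 (1.09 ± 0.07, adjusted p = 2.7e-12) and Pfkfb3 fell (-0.39 ± 0.06, adjusted p = 1.8e-06). Pfkfb3 had other probes with the opposite sign in 4 of its called comparisons. The hexokinase Hk1 rose in WT and OT (0.58 and 0.33). Its inducible relative Hk2 was lowest in OT-d (12.03, 12.29, 11.95 and 12.13) and highest in WT-d (13.53, 13.48, 13.44 and 13.65), and these groups did not overlap.

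In lower glycolysis the neuron-specific enolase Eno2 and the kinase Pdk1 moved most. Eno2 read 10.71, 12.29, 10.92 and 12.24 in WT-p, 12.32, 12.19, 12.10 and 11.72 in TO-p and 10.68, 10.47, 10.22 and 10.22 in OT-p. Differentiated cells read 13.99, 13.62, 13.61 and 14.22 in WT-d, 12.81, 12.94, 12.82 and 13.08 in TO-d and 12.74, 12.89, 13.42 and 13.26 in OT-d. OT-p lay below TO-p without overlap, and WT-d lay above all other groups. Pdk1 read 9.33, 10.14, 9.35 and 10.18 in WT-p, 8.82, 7.92, 8.36 and 7.75 in TO-p and 8.10, 8.48, 8.20 and 8.27 in OT-p. In the differentiated groups it read 11.41, 12.04, 11.59 and 11.23 in WT-d, 10.22, 9.97, 9.48 and 9.88 in TO-d and 11.58, 11.58, 11.74 and 11.50 in OT-d. Pdk1 thus had low levels in both fusion lines in proliferation medium, and in differentiation medium OT-d overlapped WT-d while TO-d lay below both. The other enolase, Eno1, fell with the medium in WT (-0.69 ± 0.16, adjusted p = 0.0006) and TO (-0.54 ± 0.15, adjusted p = 0.0039) and was at -0.04 ± 0.14, adjusted p = 0.837 in OT. Ldha, which makes lactate, fell in TO (-0.48) and rose in OT (0.42), with a WT value of -0.37 that was -0.14 (adjusted p = 0.366) without WT-p replicates 2 and 4, and the differences between OT and WT (0.79 ± 0.17, adjusted p = 0.001) and between TO and OT (-0.90 ± 0.18, adjusted p = 0.00044) in this response were called. Pgk1, which makes the first ATP of the pathway, read 16.16, 16.32, 16.06 and 15.85 in OT-p and 17.00, 17.21, 16.80 and 17.19 in OT-d, without overlap. It rose in OT (1.12), and Gapdh rose there by 0.47. In WT the values were 0.64 for Pgk1 and 0.32 for Gapdh, called with all samples, but 0.23 (adjusted p = 0.379) and 0.13 (adjusted p = 0.364) without WT-p replicates 1 and 3. Pgam1 rose by 0.69 in OT, as did the isomerase Tpi1 of upper glycolysis, by 0.79. Gapdh, Aldoa, Pgk1, Ldha, Tpi1, Eno1 and Pgam1 have near-identical copies elsewhere in the genome, so their probes can read more than the named gene. Of the glycogen genes, the branching enzyme Gbe1 read 10.17, 11.20, 10.16 and 11.09 in WT-p and 11.92, 12.03, 11.99 and 11.73 in WT-d, and 10.79, 10.18, 10.39 and 9.92 in TO-p and 11.87, 11.54, 11.00 and 11.66 in TO-d. It rose in every line (1.28, 1.19 and 0.93), without overlap in any, while the synthase Gys1 fell in WT (-0.56) and TO (-0.32) and rose in OT (0.30).

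Of the oxygen sensing genes, Hif1a fell in differentiation medium in all lines. Hif1a read 11.06, 11.00, 11.15 and 11.07 in WT-p, 10.87, 10.74, 10.96 and 11.10 in TO-p and 11.05, 11.18, 11.17 and 11.20 in OT-p. It read 9.87, 10.42, 10.22 and 10.19 in WT-d, 10.43, 10.33, 10.51 and 10.39 in TO-d and 9.68, 9.64, 9.74 and 9.64 in OT-d. No sample in differentiation medium reached a sample in proliferation medium, and the groups ran from OT-d up through WT-d to TO-d, of which WT-d and TO-d overlapped. The falls were -0.86 ± 0.09, adjusted p = 7.5e-09 in WT, -0.46 ± 0.08, adjusted p = 3.5e-05 in TO and -1.54 ± 0.08, adjusted p = 2.8e-14 in OT. Its partner Arnt rose in WT (0.34 ± 0.10, adjusted p = 0.0038) and had no other called change between media on the chosen probe. That probe gave -0.05 in TO and 0.11 in OT. Other Arnt probes above background differed from it there. The brighter of them gave 0.41, -0.90 and -0.62 in WT, TO and OT, and the dimmer gave 0.22, -0.24 and -0.20. The response of Arnt in the fusion lines thus depended on the probe. The prolyl hydroxylase Egln3 read 10.11, 11.14, 10.32 and 11.17 in WT-p, 11.06, 10.68, 10.84 and 10.59 in TO-p and 9.23, 9.39, 9.33 and 9.46 in OT-p, and it rose to 11.91, 12.17, 12.09 and 11.99 in WT-d and 10.65, 11.02, 11.43 and 11.08 in OT-d. The OT-p samples were below all others, and WT-d above all others. Egln1, the main oxygen sensor of normal tissue, was lower in TO-p (-0.55 ± 0.12, adjusted p = 0.00078) and OT-p (-0.43 ± 0.11, adjusted p = 0.0026) than in WT-p. It rose with the medium in TO (0.52) and OT (0.48), while the WT value was -0.14 ± 0.13, adjusted p = 0.347.

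Among the effectors, the mitochondrial protein Mgarp, the mitophagy receptor Bnip3 and Ndrg1, a gene of differentiation and stress, were at their lowest in OT-p. Mgarp read 10.23, 11.70, 10.24 and 11.61 in WT-p, 11.56, 11.45, 11.59 and 10.91 in TO-p and 8.72, 8.74, 8.73 and 8.65 in OT-p. Differentiated cells read 12.88, 12.84, 12.98 and 13.03 in WT-d, 12.40, 12.21, 11.96 and 12.33 in TO-d and 12.58, 12.70, 12.73 and 12.60 in OT-d. The OT-p samples lay within 8.65 to 8.74, below every other sample. Ndrg1 read 10.85, 12.16, 10.83 and 12.27 in WT-p, 11.26, 10.79, 10.92 and 10.49 in TO-p and 8.75, 8.83, 8.90 and 8.84 in OT-p. In differentiation medium it read 13.41, 13.64, 13.42 and 13.56 in WT-d, 11.13, 11.11, 10.17 and 11.23 in TO-d and 12.60, 13.07, 13.62 and 13.11 in OT-d. TO-d stayed in the range of TO-p, replicate 3 apart, while WT-d and OT-d were above every proliferating sample. Bnip3 read 12.64, 13.95, 12.61 and 13.93 in WT-p, 13.16, 12.26, 11.98 and 11.81 in TO-p and 10.76, 11.09, 10.92 and 10.87 in OT-p. After the change of medium it read 14.25, 14.31, 14.20 and 14.47 in WT-d, 13.23, 12.99, 12.19 and 13.13 in TO-d and 14.02, 14.27, 14.32 and 14.29 in OT-d. For Bnip3 OT-p was lowest and OT-d reached WT-d, while TO-d was below both. Its relative Bnip3l read 11.26, 12.32, 11.09 and 12.13 in WT-p and 13.17, 12.89, 12.83 and 12.75 in WT-d, and 11.02, 10.98, 10.52 and 10.52 in OT-p and 12.49, 12.71, 12.43 and 12.59 in OT-d. The groups of each pair did not overlap, and Bnip3l rose with the medium in WT, TO and OT by 1.20, 0.64 and 1.85.

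**Figure D2:**
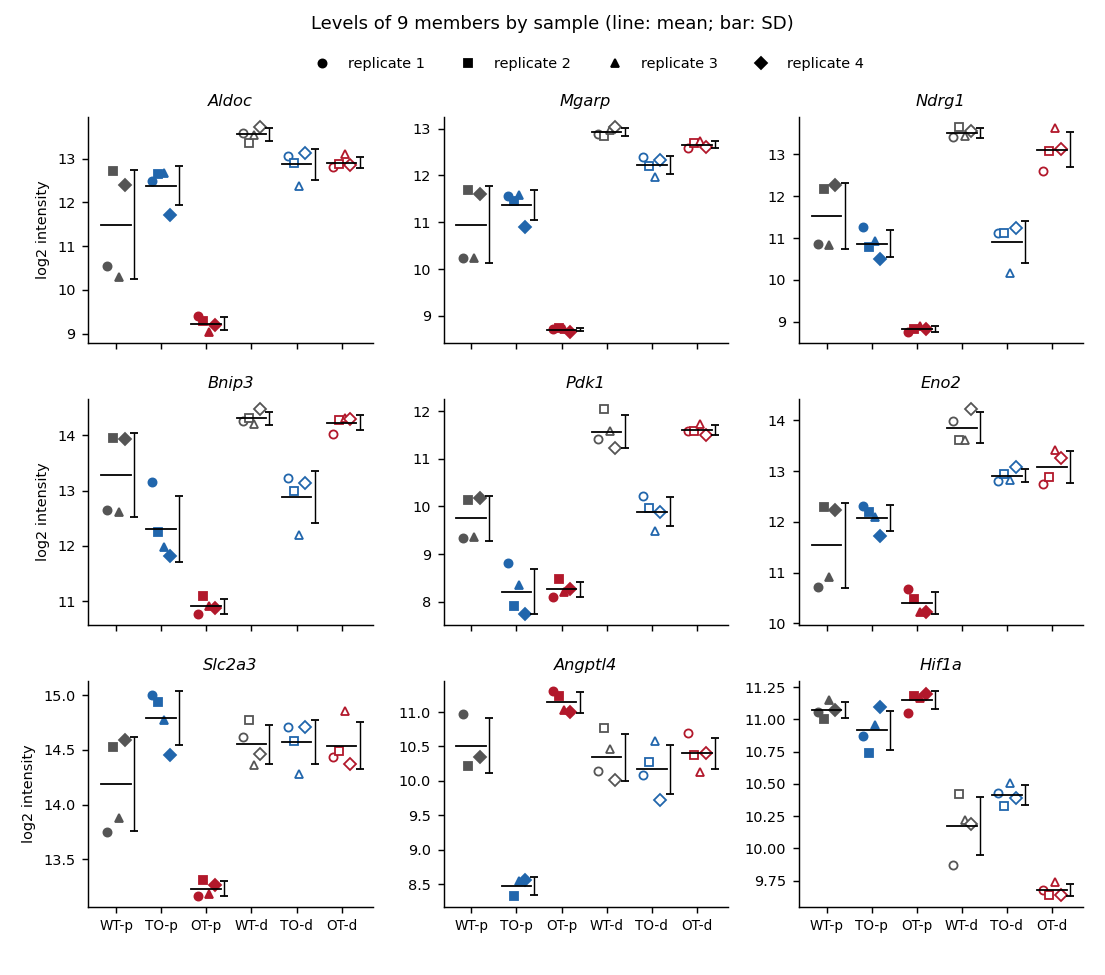
Log2 intensity of 9 members in each sample, by group and replicate number (symbols; filled for proliferation medium, open for differentiation medium); horizontal lines are group means and bars the SD of 4 samples, or 3 for Angptl4 in WT-p and TO-p. Aldoc, Mgarp, Ndrg1, Bnip3, Eno2 and Slc2a3 have their lowest values in OT-p, Angptl4 in TO-p and Hif1a in OT-d.

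The secreted effectors had different patterns. Vegfa, the vascular growth factor, read 12.05, 12.62, 12.22 and 12.43 in WT-p, 12.72, 12.88, 13.22 and 12.46 in TO-p and 11.95, 11.87, 11.88 and 11.95 in OT-p. After the change of medium it read 14.24, 13.31, 13.66 and 14.36 in WT-d, 12.43, 12.53, 12.42 and 12.50 in TO-d and 11.61, 11.71, 12.04 and 11.80 in OT-d. The WT-d samples were above all others, and in the fusion lines the medium response was not called (-0.42 ± 0.19, adjusted p = 0.064 in TO and 0.00 ± 0.18, adjusted p = 0.987 in OT). Of 2 dimmer Vegfa probes, 1 gave 1.37, -0.25 and -0.07 for this response in WT, TO and OT. The other gave 0.80, 0.45 and 0.39, so the size of the contrast between lines depended on the probe. Adm, a vasodilator peptide, read 8.53, 9.99, 8.48 and 9.97 in WT-p, 8.95, 7.92, 8.10 and 8.11 in TO-p and 7.55, 7.40, 7.40 and 7.47 in OT-p. In the other medium it read 11.34, 11.37, 11.11 and 11.19 in WT-d, 9.66, 9.62, 8.78 and 9.45 in TO-d and 8.84, 9.36, 9.62 and 9.10 in OT-d. It rose in each line, by 2.05 ± 0.32, adjusted p = 5.7e-06 in WT, 1.00 ± 0.30, adjusted p = 0.0071 in TO and 1.83 ± 0.28, adjusted p = 4.6e-06 in OT. Angptl4, an inhibitor of lipoprotein lipase, read 10.97, 10.22 and 10.35 in WT-p replicates 1, 2 and 4, 8.32, 8.54 and 8.56 in TO-p replicates 2, 3 and 4, and 11.30, 11.23, 11.03 and 11.00 in OT-p; the spot of the array that held WT-p replicate 3 and TO-p replicate 1 was left out, and the fit used 3 samples of each. In differentiation medium it read 10.14, 10.77, 10.46 and 10.01 in WT-d, 10.09, 10.28, 10.58 and 9.72 in TO-d and 10.69, 10.37, 10.13 and 10.40 in OT-d. TO-p was below all other groups and OT-p was above WT-p, while the groups in differentiation medium overlapped.

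Among enzymes of protein maturation, both collagen prolyl hydroxylases rose with the medium in every line, while the response of Ero1l was called in WT only. The collagen prolyl hydroxylase P4ha1 read 10.47, 11.33, 10.68 and 11.22 in WT-p and 13.15, 13.10, 12.57 and 13.05 in WT-d, 11.98, 12.09, 11.74 and 12.03 in TO-d, and 10.45, 10.46, 9.95 and 10.19 in OT-p and 11.96, 11.96, 12.38 and 12.04 in OT-d. WT-d lay above all other groups. P4ha1 rose by 2.00 ± 0.17, adjusted p = 9.6e-10 in WT, 0.78 ± 0.16, adjusted p = 0.00031 in TO and 1.84 ± 0.16, adjusted p = 3.1e-10 in OT. Its relative P4ha2 rose by 1.77, 1.12 and 1.61 in WT, TO and OT. For P4ha2 the samples read 14.51, 15.07, 14.47 and 14.68 in WT-p, 15.41, 15.06, 14.97 and 14.73 in TO-p and 14.07, 14.26, 14.26 and 14.33 in OT-p. After the change of medium P4ha2 read 16.23, 16.47, 16.05 and 16.52 in WT-d, 16.26, 16.19, 15.57 and 16.45 in TO-d and 15.59, 15.73, 15.90 and 15.80 in OT-d. Every one of these samples was above every proliferating sample. Ero1l, an oxidase of the endoplasmic reticulum, responded in WT by 0.88 ± 0.24 (adjusted p = 0.0029), but by 0.29 (adjusted p = 0.177) without WT-p replicates 1 and 3; its levels were 12.91, 12.14, 12.51 and 13.03 in WT-d, 11.23, 11.11, 10.72 and 11.17 in TO-d and 10.21, 10.42, 10.07 and 10.47 in OT-d, without overlap. The difference in that response was called for TO (-1.12) and OT (-1.30) against WT; without WT-p replicates 1 and 3 the TO value was -0.37 (adjusted p = 0.291).

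Regulators and pH enzymes completed the effectors. The Myc antagonist Mxi1 read 11.15, 11.36, 11.15 and 11.52 in WT-p and 10.74, 10.66, 10.71 and 10.49 in OT-p. Differentiated cells read 12.57, 12.24, 12.25 and 12.50 in WT-d, 11.43, 11.31, 11.07 and 11.53 in TO-d and 11.63, 11.77, 11.92 and 11.80 in OT-d. WT-d was above all other groups, and TO-d stayed in the range of TO-p (11.04 to 11.56). It rose in WT (1.1 ± 0.13, adjusted p = 7.4e-08) and OT (1.21 ± 0.11, adjusted p = 1.6e-09), and in TO its change was 0.00 ± 0.12, adjusted p = 0.984. The histone demethylase Kdm3a rose in all lines, from 10.39, 10.44, 10.34 and 10.47 to a range of 11.95 to 12.25 in OT (1.67), though a dimmer probe gave -0.47 where the chosen one gave 0.59 for OT-d against WT-d. Ankrd37, an ankyrin repeat protein, read 10.81, 11.81, 10.93 and 11.96 in WT-p, 11.17, 10.10, 10.47 and 10.64 in TO-p and 9.91, 10.18, 10.06 and 10.07 in OT-p. In the other medium it read 12.55, 12.52, 12.62 and 12.74 in WT-d, 11.66, 11.61, 10.78 and 11.63 in TO-d and 12.29, 12.45, 12.57 and 12.60 in OT-d. TO-d lay below WT-d and OT-d without overlap. Ankrd37 rose in all lines, by 1.34, 0.82 and 2.47. Of the carbonic anhydrases, which balance pH, Car12 read 11.08, 10.69, 10.54 and 10.75 in TO-p and 9.71, 9.84, 9.53 and 9.83 in TO-d, without overlap. It fell with the medium in WT (-0.49), TO (-1.08) and OT (-0.56), while Car9 had no called response. Car9 was lower in TO than in OT in both media (-0.36 and -0.56).

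The first question was how the cobalamin-binding line differed from the non-binding line in proliferation medium. Glycolysis and hypoxia genes were mostly higher in TO-p than OT-p: 27 of 44 were called higher and 3 lower, with a median log2 fold of 0.57 over the 44 against 0.02 over all genes. Of all tested genes, 30.2% were called higher and 26% lower. Either way 30 of 44 members were called, against 56.2% of all genes; changes of 2-fold or more numbered 9 upward and 1 downward, against 5.38% and 1.79%. By role the counts higher and lower were 2 and 0 of 4 transporters, 7 and 0 of 11 genes of upper glycolysis, 5 and 0 of 8 of lower glycolysis, 1 and 0 of 2 glycogen genes, 1 and 1 of 4 HIF and oxygen sensor genes, and 11 and 2 of 15 effectors. The largest differences were those of Aldoc (log2 3.33 ± 0.35, adjusted p = 3.5e-08), Mgarp (2.76 ± 0.24, adjusted p = 2.4e-09), Ndrg1 (2.16 ± 0.29, adjusted p = 1.5e-06), Eno2 (1.86 ± 0.27, adjusted p = 3.3e-06), Slc2a3 (1.57 ± 0.15, adjusted p = 1e-08), Egln3 (1.51 ± 0.19, adjusted p = 3.8e-07) and Bnip3 (1.51 ± 0.29, adjusted p = 0.00012). Pfkp and Vegfa, at log2 1.07 and 1.01, also passed 2-fold. Dimmer probes above background gave 0.58 for Aldoc, 1.92 for Eno2 and 0.37 for Slc2a3. For Pfkp they gave 0.29 and 0.53, and for Vegfa 0.22 and 0.62. Angptl4 went against the others and was lower in TO-p (-2.64 ± 0.19, adjusted p = 3.9e-10), as did Hif1a (-0.26) and Car9 (-0.36). Within the slides, 29 of 29, 28 of 30 and 29 of 30 called members kept their sign, and with slide as a covariate 27 were higher and 3 lower.

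In differentiation medium calls between the same pair of lines went both ways, and the count of higher calls was near the background. TO-d was higher than OT-d for 8 of 44 members and lower for 13, where 18.7% and 21.3% of all genes were called; the median was -0.19 against -0.02. Either way 21 of 44 members were called, against 40% of all genes; changes of 2-fold or more numbered 0 upward and 4 downward, against 1.61% and 1.58%. The members below OT-d at 2-fold or more were Ndrg1 (-2.24 ± 0.32, adjusted p = 5e-06), Pdk1 (-1.66 ± 0.22, adjusted p = 2.6e-06), Bnip3 (-1.44 ± 0.31, adjusted p = 0.00074) and Ankrd37 (-1.02 ± 0.26, adjusted p = 0.0033). Kdm3a (-0.95) and Pfkl (-0.76) were lower as well. Higher in TO-d were Hif1a (0.82 ± 0.09, adjusted p = 7.2e-08), Hk2 (0.71), Pfkfb3 (0.66) and Vegfa (0.59). By role the effectors counted 3 higher and 6 lower of 15, upper glycolysis 3 and 3 of 11, and lower glycolysis 0 and 3 of 8. Aldoc, at -0.21 ± 0.38, adjusted p = 0.705, and Eno2, at -0.33 ± 0.29, adjusted p = 0.401, did not pass the test here, nor did Mgarp, at -0.54 ± 0.26, adjusted p = 0.105. In the plot of the TO against OT difference in both media, Ndrg1 and Bnip3 lie in the corner of higher in p and lower in d. All 21 called members kept their sign within slides 2 and 3, which hold both groups.

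**Figure D3:**
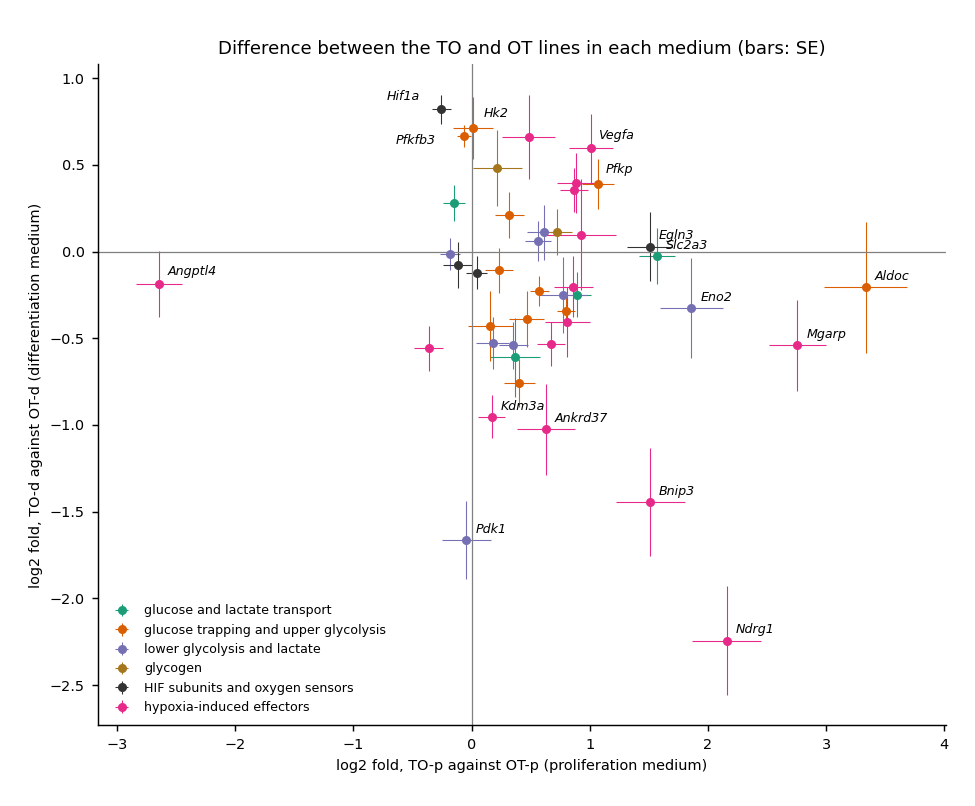
Log2 fold of TO against OT in proliferation medium (horizontal) and in differentiation medium (vertical) for the 44 tested members, coloured by role; bars are the standard errors of the fit. Most points lie right of 0 on the horizontal axis, from -2.64 for Angptl4 to 3.33 for Aldoc, while on the vertical axis they range from -2.24 for Ndrg1 to 0.82 for Hif1a.

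The second question was how each line responded to differentiation medium. In WT, 31 of 44 members rose and 5 fell, with a median of 0.73 against 0.06 for all genes; the background was 35.6% higher and 30.9% lower. Either way 36 of 44 members were called, against 66.5% of all genes; changes of 2-fold or more numbered 17 upward and 0 downward, against 7.2% and 7.77%. Most effectors rose (12 of 15), as did 9 of 11 genes of upper glycolysis. Eno2 (2.23 ± 0.29, adjusted p = 4.4e-07), Adm (2.05 ± 0.32, adjusted p = 5.7e-06), Aldoc (2.03), Mgarp (2.02), Ndrg1 (2.02), P4ha1 (2.00) and Pdk1 (1.93) led. Without WT-p replicates 1 and 3 the order was another, with P4ha1 (1.64), P4ha2 (1.54), Pdk1 (1.48) and Eno2 (1.46) first, while Adm stood at 1.26, Aldoc at 0.98, Mgarp at 1.29 and Ndrg1 at 1.29. With all 4 WT-p samples, dimmer probes gave 2.23 for Eno2, 2.02 for P4ha1, 0.98 for Aldoc and 0.48 for Pdk1. The 5 that fell were Hif1a (-0.86), Eno1 (-0.69), Gys1 (-0.56), Car12 (-0.49) and Ldha (-0.37). The count was 25 higher and 6 lower without WT-p replicates 1 and 3, and 31 and 4 without replicates 2 and 4; 28 members were called with the same sign each time. Without replicates 1 and 3 the call ended for Bnip3, which went from 1.21 ± 0.31, adjusted p = 0.0017, to 0.47 (adjusted p = 0.123), and for Hk2 (0.17, adjusted p = 0.389), besides Slc2a3, Gapdh, Pgk1 and Ero1l. Without replicates 2 and 4 it ended for Pfkfb3 (0.10, adjusted p = 0.201) and Ldha. The signs held within slide 1 for 36 of 36 called members and within slide 3 for 35 of 36.

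TO had fewer calls than WT and OT, among the members as among all genes. In TO-d against TO-p 17 of 44 members were higher and 5 lower, where 26.1% and 26.4% of all genes were called. The median was 0.25 against 0.00. Either way 22 of 44 members were called, near the background of 52.4% of all genes. That background was 66.5% in WT and 67.7% in OT. Changes of 2-fold or more numbered 4 upward and 1 downward, against 2.64% and 4.46%. The members that rose at least 2-fold were Pdk1 (1.66 ± 0.21, adjusted p = 5.2e-07), Angptl4 (1.63 ± 0.19, adjusted p = 3.7e-07), Gbe1 (1.19 ± 0.21, adjusted p = 3.5e-05) and P4ha2 (1.12 ± 0.16, adjusted p = 3.3e-06). For Pdk1 a dimmer probe gave 0.35. Car12 fell most (-1.08 ± 0.12, adjusted p = 6.4e-08). Ndrg1 (-0.07 ± 0.30, adjusted p = 0.87), Aldoc (0.27 ± 0.35, adjusted p = 0.567), Bnip3 (0.50 ± 0.29, adjusted p = 0.17) and Slc2a3 (-0.29 ± 0.15, adjusted p = 0.115) did not pass the test. With the samples whose label number carries a b left out, 8 members were higher and 5 lower. All called members kept their sign on each slide where they were measured.

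In OT, 32 of 44 members were higher in OT-d and 5 lower, with a median of 0.98 against 0.04, and 36.7% and 31% of all genes called. Either way 37 of 44 members were called, against 67.7% of all genes; changes of 2-fold or more numbered 22 upward and 1 downward, against 9.48% and 7.48%. By role the counts higher and lower were 3 and 0 of 4 transporters, 9 and 2 of 11 genes of upper glycolysis, 6 and 0 of 8 of lower glycolysis, 2 and 0 of 2 glycogen genes, 2 and 1 of 4 HIF and oxygen sensor genes, and 10 and 2 of 15 effectors. Ndrg1 rose 20.1-fold (log2 4.33 ± 0.28, adjusted p = 3.1e-12), Mgarp 16.1-fold (4.01 ± 0.23, adjusted p = 4.5e-13), Aldoc 14-fold (3.81 ± 0.34, adjusted p = 6.3e-10), Bnip3 10.9-fold (3.45 ± 0.28, adjusted p = 1.4e-10), Pdk1 9.68-fold (3.27 ± 0.20, adjusted p = 9.8e-13) and Eno2 6.98-fold (2.80 ± 0.26, adjusted p = 1.2e-09). These sizes are those of the brightest probe. Dimmer probes gave log2 0.67 for Aldoc, 1.76 for Pdk1 and 2.86 for Eno2. The 5 that fell were Hif1a (-1.54 ± 0.08, adjusted p = 2.8e-14), Angptl4 (-0.82), Car12 (-0.56), Hk2 (-0.40) and Pfkfb3 (-0.39). Signs held within slide 2 for 36 of 37 called members and within slide 3 for all 37.

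**Figure D4:**
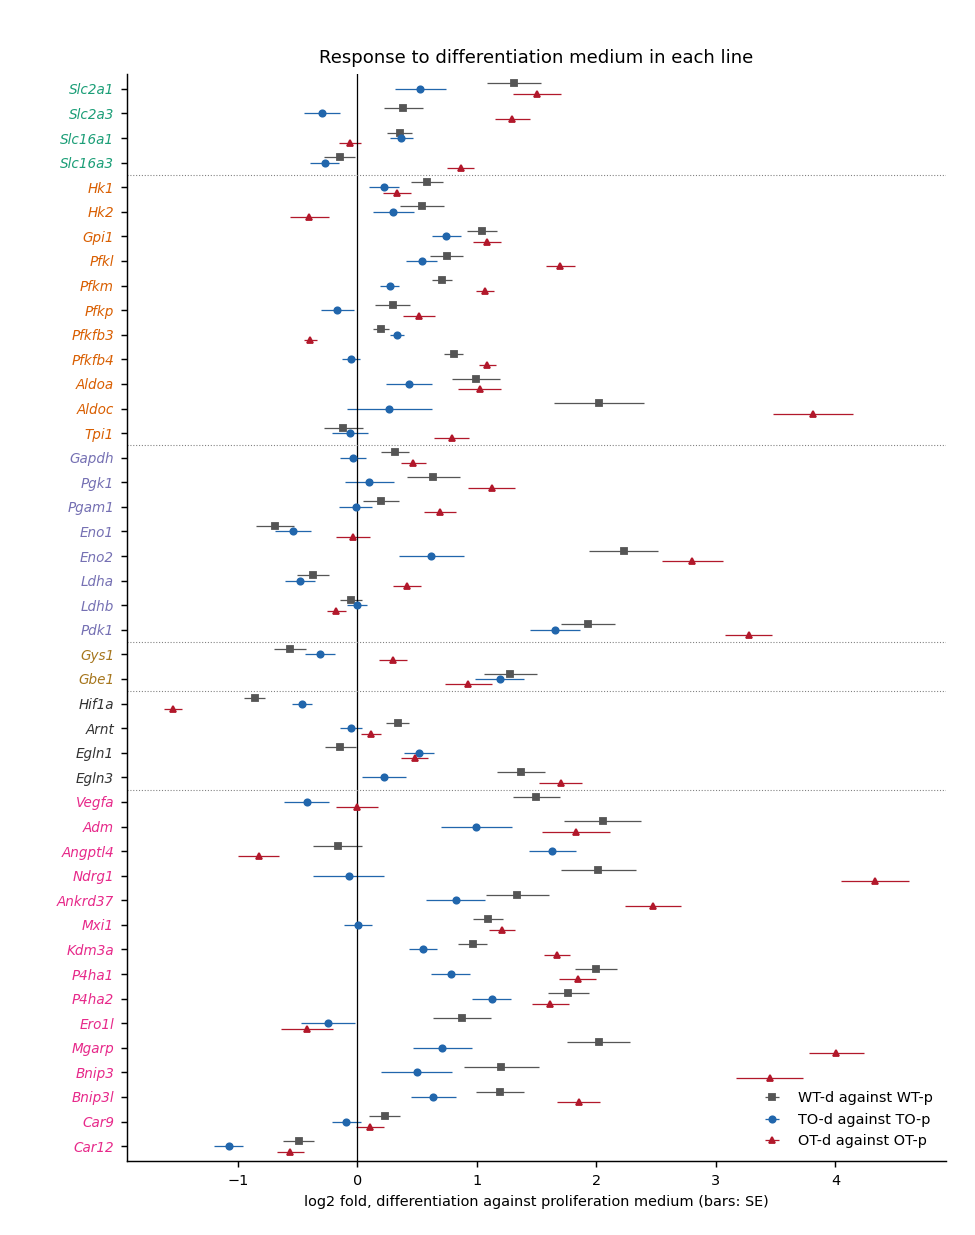
Log2 fold of differentiation against proliferation medium in WT (grey squares), TO (blue circles) and OT (red triangles) for each of the 44 tested members; bars are standard errors of the fit. For Ndrg1 the values were 2.02 in WT, -0.07 in TO and 4.33 in OT, and the blue circles sit left of the red triangles in most rows.

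The difference between the lines' responses was tested directly. The log2 change was lower in TO than in OT for 26 of 44 members and higher for 5, with a median difference of -0.75 against -0.04, and 23.6% and 16.8% of all genes. Either way 31 of 44 members were called, against 40.4% of all genes; changes of 2-fold or more numbered 2 upward and 17 downward, against 1.51% and 4.66%. The difference reached -4.40 ± 0.43, adjusted p = 6.9e-08 for Ndrg1, -3.54 ± 0.51, adjusted p = 9.8e-06 for Aldoc, -3.30 ± 0.35, adjusted p = 2.5e-07 for Mgarp, -2.95 ± 0.42, adjusted p = 9.3e-06 for Bnip3 and -2.19 ± 0.39, adjusted p = 0.00011 for Eno2. It was positive for Angptl4 (2.46 ± 0.27, adjusted p = 6.6e-07), Hif1a (1.08 ± 0.12, adjusted p = 2.6e-07), Pfkfb3 (0.73), Hk2 (0.70) and Slc16a1 (0.43). For OT against WT the log2 change was higher for 18 and lower for 7 (background 20.8% and 14.4%), led by Ndrg1 (2.31), Bnip3 (2.24) and Mgarp (1.99), and by Vegfa (-1.50) and Ero1l (-1.30) on the other side. Either way 25 of 44 members were called, against 35.1% of all genes. Changes of 2-fold or more numbered 7 upward and 2 downward, against 2.48% and 0.998%. With all probes of a gene averaged, the calls ended for Ero1l (-0.72, adjusted p = 0.0519) and Aldoc (from 1.78 to 0.73, adjusted p = 0.0699). The split of 18 higher and 7 lower became 24 and 7 without WT-p replicates 1 and 3, with a median difference of 0.52, and 13 and 9 without replicates 2 and 4, with a median of -0.06, where Ankrd37 went from 1.14 to 0.58 (adjusted p = 0.135). For TO against WT it was higher for 3 and lower for 15 (background 17.1% and 19.3%), and 4 and 10 with loess alone. Either way 18 of 44 members were called, against 36.4% of all genes; changes of 2-fold or more numbered 1 upward and 9 downward, against 1.35% and 2.45%. The counts for TO against WT rest on the WT-p samples, with 2 higher and 5 lower without replicates 1 and 3, and 4 and 26 without replicates 2 and 4. Without replicates 1 and 3 the calls of at least 2-fold that ended were Aldoc, from -1.76 to -0.45 (adjusted p = 0.281), Eno2, from -1.61 to -0.66 (adjusted p = 0.0691), Mgarp, from -1.31 to -0.41 (adjusted p = 0.154), Egln3, from -1.15 to -0.55 (adjusted p = 0.0696), and Ero1l, from -1.12 to -0.37 (adjusted p = 0.291). WT-p replicate 3 left out alone ended the calls of Aldoc (-1.16, adjusted p = 0.07) and Ero1l (-0.70, adjusted p = 0.0728), and WT-d replicate 4 that of Ero1l (-0.88, adjusted p = 0.0534). The 7 members called with the same sign with all samples and with either pair of WT-p left out were Pfkfb4, Egln1, Vegfa, Angptl4, Ndrg1, Mxi1 and P4ha1.

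The third question was where each fusion line stood against the untransfected cells. OT-p was below WT-p for 32 of 44 members and above for 2, where 24.3% of all genes were lower and 20.4% higher; the median was -0.60 against -0.02. Either way 34 of 44 members were called, against 44.7% of all genes; changes of 2-fold or more numbered 0 upward and 11 downward, against 0.357% and 1.84%. The falls were largest for Ndrg1 (-2.64 ± 0.27, adjusted p = 4.4e-08), Aldoc (-2.30 ± 0.32, adjusted p = 3.7e-06), Bnip3 (-2.28 ± 0.26, adjusted p = 3.3e-07), Mgarp (-2.21 ± 0.22, adjusted p = 3.8e-08), Adm (-1.69 ± 0.27, adjusted p = 2.1e-05), Pdk1 (-1.36 ± 0.19, adjusted p = 3.5e-06) and Slc2a1 (-1.31 ± 0.19, adjusted p = 8.1e-06). On dimmer probes Aldoc stood at -0.29 and Pdk1 at -1.08. Angptl4 (0.63) and Pfkfb3 (0.28) were higher. Without WT-p replicates 1 and 3 the counts were 35 lower and 2 higher, and without replicates 2 and 4 they were 20 and 1; 21 members were called with the same sign in all sets. The calls of about 2-fold that ended without replicates 2 and 4 were Eno2, from -1.21 to -0.45 (adjusted p = 0.0555), and Ero1l, which became -0.42 (adjusted p = 0.0763), and that of Angptl4 ended too (0.23, adjusted p = 0.569). Ndrg1 stood at -3.36 and -1.93 in those sets, Aldoc at -3.34 and -1.25. All 34 called members kept their sign on each of the 3 slides.

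TO-p against WT-p turned on the WT-p samples used. With all 4 samples, 8 members were higher and 9 lower, near the background of 19% and 15.7% of all genes, and the median was -0.02. Either way 17 of 44 members were called, against 34.7% of all genes; changes of 2-fold or more numbered 1 upward and 2 downward, against 0.844% and 0.634%. The split was 3 higher and 14 lower without replicates 1 and 3, and 15 and 4 without replicates 2 and 4. Aldoc changed sign, from 1.04 ± 0.34, adjusted p = 0.019 with all samples to -0.13 (adjusted p = 0.747) and 1.96 (adjusted p = 9.1e-08), and within slide 3 it was -0.08. Its call also ended without WT-p replicate 1 (0.73, adjusted p = 0.0874), WT-p replicate 3 (0.47, adjusted p = 0.343), TO-p replicate 1 (0.82, adjusted p = 0.135) or TO-p replicate 3 (0.93, adjusted p = 0.058). Bnip3l was called in opposite directions in the smaller sets (-0.70 and 0.35), with -0.12 ± 0.18, adjusted p = 0.676 over all samples. The 6 members called with the same sign throughout were Pdk1 (-1.41 ± 0.20, adjusted p = 8.8e-06), Angptl4 (-2.02 ± 0.20, adjusted p = 1.2e-07), Slc2a1 (-0.94) and Egln1 (-0.55), which were lower, and Pfkm (0.54) and Pfkfb4 (0.54), which were higher. Single libraries also moved the total of 17: it was 11 without TO-p replicate 2, 10 without TO-p replicate 3, and 11 without the samples with a b label.

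**Figure D5:**
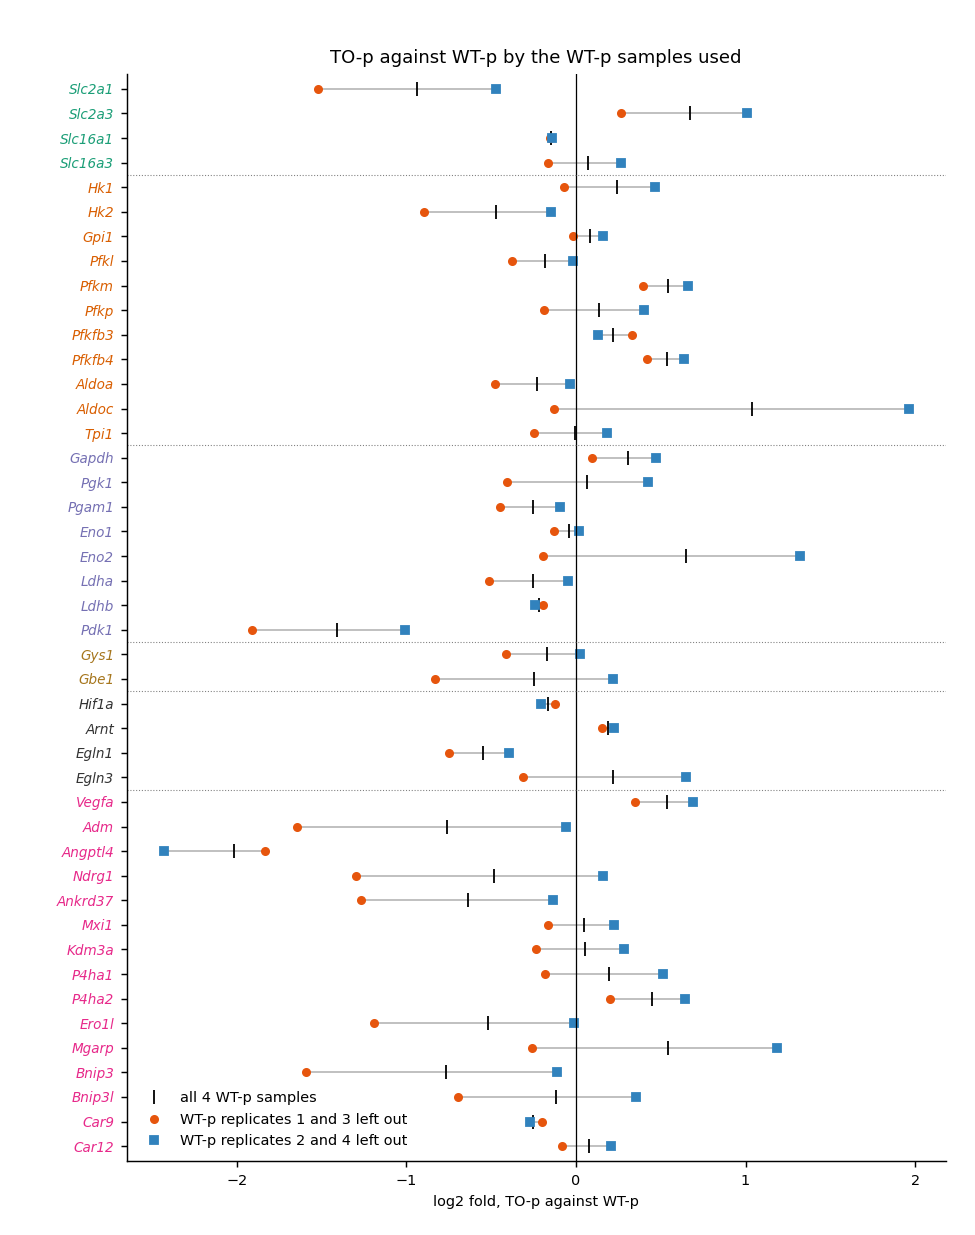
Log2 fold of TO-p against WT-p for the 44 tested members with all 4 WT-p samples (black ticks), without replicates 1 and 3 (orange circles) and without replicates 2 and 4 (blue squares). The blue squares lie to the right for most rows, with Aldoc running from -0.13 to 1.96, while Pdk1 stays left of 0 throughout.

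In differentiation medium members were lower than in WT-d more often than higher in either fusion line, and 19 of 44 in TO-d and 24 of 44 in OT-d were not called. TO-d was lower for 23 of 44 members and higher for 2, against 23.8% and 22.6% of all genes, with a median of -0.38 against -0.03; 13 of the 15 effectors were lower and none higher. Either way 25 of 44 members were called, against 46.5% of all genes; changes of 2-fold or more numbered 0 upward and 10 downward, against 1.27% and 2.06%. Loess alone, which moved the median of all genes to 0.105, left 14 lower and 2 higher. The largest falls were Ndrg1 (-2.57 ± 0.34, adjusted p = 2.3e-06), Adm (-1.82 ± 0.34, adjusted p = 0.00016), Slc2a1 (-1.72 ± 0.24, adjusted p = 5.9e-06), Pdk1 (-1.68 ± 0.24, adjusted p = 6.1e-06), Ero1l (-1.64 ± 0.26, adjusted p = 2.2e-05) and Bnip3 (-1.48 ± 0.33, adjusted p = 0.001). Dimmer probes gave -1.19 for Pdk1 and -0.68 for Ero1l. Pfkfb3 (0.35) and Hif1a (0.23) were higher. OT-d was lower for 16 and higher for 4, where 25.2% and 26.7% of all genes were called; on the scanner's processed signals the counts were 19 and 2. Either way 20 of 44 members were called, against 51.9% of all genes; changes of 2-fold or more numbered 0 upward and 5 downward, against 1.82% and 2.41%. Its largest falls were Ero1l (-2.30 ± 0.23, adjusted p = 2.2e-08), Vegfa (-1.98 ± 0.19, adjusted p = 1.2e-08), Adm (-1.92 ± 0.30, adjusted p = 1.3e-05), Hk2 (-1.43 ± 0.17, adjusted p = 3.7e-07) and Slc2a1 (-1.11 ± 0.21, adjusted p = 0.00015). On dimmer probes Ero1l stood at -1.10, and Vegfa at -1.77 and -0.54. Ndrg1 (-0.33 ± 0.30, adjusted p = 0.361), Bnip3 (-0.04 ± 0.29, adjusted p = 0.931) and Pdk1 (-0.02 ± 0.21, adjusted p = 0.946) did not pass the test in OT-d against WT-d. Within slides, 24 of 25 called members of TO-d kept their sign on slide 1 and on slide 3, and all 20 of OT-d did on slide 3, the only one with both groups.

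Other genes of the HIF pathway were higher in TO-p than OT-p for 12 and lower for 6 of 32 tested. Of all genes 30.2% and 26% were called, so the counts of this list were near the background. The largest single differences were those of the vessel factor Angpt2 (3.05 ± 0.14, adjusted p = 6.5e-14), the cyclin Ccng2 (1.46 ± 0.21, adjusted p = 3.4e-06) and Selenbp1 (1.40 ± 0.32, adjusted p = 0.00072), with the transferrin receptor Tfrc lower (-2.15 ± 0.16, adjusted p = 1e-10). In TO-d against OT-d the counts were 5 and 8 of 32, against 18.7% and 21.3% of all genes, also near the background. Angpt2 was still higher (2.02), whereas Selenbp1 (-2.10) and Ccng2 (-1.15) were lower. Liver-type glycogen phosphorylase, Pygl, was higher in TO-p than OT-p (2.92 ± 0.24, adjusted p = 1.1e-09) and rose with the medium in OT (3.36 ± 0.23, adjusted p = 1e-11). Of the 13 genes tested that are linked to pyruvate in mitochondria, 1 was higher and 9 lower in TO-p than OT-p, against the same 30.2% and 26%. The kinase Pdk3 was lower (-1.34 ± 0.13, adjusted p = 1.6e-08). With differentiation medium in OT these genes counted 4 and 9 of 13, against 36.7% and 31% of all genes, and Pdk3 (-1.59) and malic enzyme Me2 (-1.46) fell. The pentose phosphate pathway, which branches off at the first step, had 0 and 5 of 7 higher and lower in WT-d against WT-p, where 35.6% and 30.9% of all genes were called, and 2 and 5 of 7 in OT. The other glycolysis and gluconeogenesis genes counted 4 and 8 of 20 in WT, 3 and 11 of 20 in TO and 6 and 6 of 20 in OT; the shares of all genes were 35.6% and 30.9%, 26.1% and 26.4%, and 36.7% and 31%, so the OT counts were near the background. Tigar, a phosphatase that draws sugar away from glycolysis, fell in each line (-2.32, -1.68 and -2.44), and the hexokinase-related Hkdc1 fell in WT (-1.40) and OT (-1.50).

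Probe positions, which the files give on the mm8 build, were chr11:78142657-78142716 for Aldoc, chr15:66759164-66759223 for Ndrg1, chr3:51476498-51476557 for Mgarp, chr7:138729737-138729796 for Bnip3, chr2:71704602-71704661 for Pdk1, chr6:124726146-124726205 for Eno2, chr6:122693676-122693735 for Slc2a3, chr17:33381815-33381874 for Angptl4 and chr12:74865120-74865180 for Hif1a. Where these fall in the exons was not analysed here. Of the members, 23 had a single probe. For the 19 others with another probe above background, 96 differences called on the chosen probe could be read on more than 1 probe. Of these, 9 had a probe of opposite sign or at 0.00, the latter for Hk1 with the medium in OT. None of the 36 differences of 2-fold or more had either. This is agreement of sign only, and sizes could differ widely. With the medium in OT, other probes gave 0.67 for Aldoc (3.81 on the chosen probe), 0.31 for Slc2a3 (1.30) and 0.14 for Gpi1 (1.09). These other probes were dim, with mean levels of 6.95, 6.58 and 6.89, where the chosen ones had 12.07, 14.31 and 16.47. The lowest level well above background was 5.48 to 6.36 by sample. The other probes of Eno2 (2.86 and 2.80), Aldoa (1.00 and 1.02) and Pgk1 (1.13 and 1.12) were close in size. Their mean levels were 11.98, 17.34 and 16.47.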

How the data were processed

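RNA of 24 samples was hybridised to 12 two-colour Agilent arrays on 3 slides, with replicates 1 and 2 of each group in Cy5 and 3 and 4 in Cy3. The authors deposited the scanner output of each array, made, per the file headers, with Feature Extraction 10.5.1.1 of Agilent, and intensity values of a series table whose normalization is not given in the sources used here (lowest rank correlation with the scanner values 0.994).

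Spots flagged as non-uniform, as population outliers or for their background (0.492%) were left out before normexp (offset 50, on mean signal and local background), loess and Aquantile in limma 3.58.1 with R 4.3.3. Spots of a probe were averaged and the brightest probe stood for a gene. Genes well above background in all 4 samples of a group were kept (16239 of 27597). The log2 values, computed here from the deposited intensity columns, were fitted with 6 group means, a dye term and the array as a block (intraspot correlation 0.464). The fit left 17 residual degrees of freedom, and Benjamini-Hochberg adjustment ran over all genes tested. The procedure was tested on simulated data.

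The members and lists were chosen with earlier results of these data known. Of the marker genes listed, 1 is not reported here and was left out of its list. Any member could be named. Those called with a change of at least 2-fold and groups that did not overlap are given by sample, and other pathway genes as the 4 largest at most in each direction. The alternatives were processed signals less their 75th percentile, series table values, loess alone, quantile normalization, all probes averaged, no filter, no dye term, slide as a covariate, a replicate block, no b samples, WT-p replicates 1 and 3 left out, and each sample left out. Leaving out WT-p replicates 2 and 4 was chosen after seeing the data. Samples with the same replicate number did not deviate together (median r -0.02 over 60 pairs, against 0.38 over 12 pairs on the same array), so the number was not used as a block in the reported fit. Figures were drawn with matplotlib 3.10.9.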

Additional observations from a re-analysis of the deposited data

Results flagged for a closer look

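In 11 of 268 groups of 4 samples of a member, or 4.10%, 1 sample stood apart from the 3 others by a Dixon test, which chance does in about 1 in 20 groups. In TO-d replicate 3 the log2 intensity set apart was that of Slc16a3 at 15.29, Gpi1 at 16.45, Gapdh at 15.54, Ndrg1 at 10.17 and Ankrd37 at 10.78. In TO-p replicate 1 the log2 intensity set apart was that of Slc2a1 at 12.53 and Pfkl at 12.14. In OT-p replicate 1 the log2 intensity set apart was that of Pfkfb4 at 11.35. In OT-p replicate 3 the log2 intensity set apart was that of Gapdh at 15.22. In WT-d replicate 3 the log2 intensity set apart was that of P4ha1 at 12.57. In OT-d replicate 1 the log2 intensity set apart was that of Bnip3 at 14.02. 5 of the 11 were thus in TO-d replicate 3 and 2 in TO-p replicate 1.

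The medium response differed between lines by at least 2-fold, by the test of the difference itself in limma at an adjusted p under 0.05, for the members that follow. For TO less OT, the difference in log2 response was negative for 17 members, namely Slc2a3 (-1.59), Slc16a3 (-1.14), Pfkl (-1.16), Pfkfb4 (-1.14), Aldoc (-3.54), Pgk1 (-1.02), Eno2 (-2.19), Pdk1 (-1.62), Egln3 (-1.48), Ndrg1 (-4.40), Ankrd37 (-1.65), Mxi1 (-1.21), Kdm3a (-1.12), P4ha1 (-1.06), Mgarp (-3.30), Bnip3 (-2.95) and Bnip3l (-1.21). It was positive for 2, namely Hif1a (1.08) and Angptl4 (2.46). For TO less WT, the difference in log2 response was negative for 9 members, namely Aldoc (-1.76), Eno2 (-1.61), Egln3 (-1.15), Vegfa (-1.92), Ndrg1 (-2.09), Mxi1 (-1.09), P4ha1 (-1.22), Ero1l (-1.12) and Mgarp (-1.31). It was positive for Angptl4 (1.80). For OT less WT, the difference in log2 response was negative for 2 members, namely Vegfa (-1.50) and Ero1l (-1.30). It was positive for 7, namely Slc16a3 (1.01), Aldoc (1.78), Pdk1 (1.34), Ndrg1 (2.31), Ankrd37 (1.14), Mgarp (1.99) and Bnip3 (2.24). The comparisons with WT rest on WT-p samples that fell into 2 pairs, and the report gives the counts with either pair left out and the values of the members listed here whose call then ended.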

How the results depend on the processing

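Each count of members called was recomputed under every alternative. The total called for TO-p against WT-p, 17, was 11 without the b samples (4 higher, 7 lower) and 10 to 18 with single samples left out. For TO-d against WT-d, 25 became 16 with loess alone. For OT-p against WT-p, 34 became 21 without WT-p replicates 2 and 4. For TO-d against TO-p, 22 became 13 without the b samples. For the medium response of TO against WT, 18 became 7 without WT-p replicates 1 and 3, 30 without replicates 2 and 4, and 13 to 24 with single samples left out. All other totals stayed within 1.5 times. Aldoc in TO-p against WT-p turned from 1.04 to -0.13 (adjusted p = 0.747) without WT-p replicates 1 and 3. These shifts come with fewer or other samples or scalings, and the cause was not tested.

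The share of higher calls moved by over 10 percentage points for TO-p against WT-p with slide as a covariate (9 higher, 6 lower), with no filter (8 and 5) and with all probes averaged (5 and 9). It also did so for OT-d against WT-d on processed signals (2 and 19) and for the medium response of TO against WT with loess alone (4 and 10). Without the b samples it moved so for TO-p against WT-p, TO-d against OT-d (4 and 12) and TO-d against TO-p (8 and 5). Leaving out either pair of WT-p moved it for TO-p against WT-p, leaving out replicates 1 and 3 for the medium response of TO against WT, and leaving out 2 and 4 for that of OT against WT (13 and 9). Loess alone moved the median of all genes to 0.11 for TO-d against WT-d, 0.13 for the medium response of TO against WT and 0.10 for that of OT against WT; processed signals moved it to 0.19 for WT-d against WT-p and -0.13 for the medium response of TO against WT. With the replicate number as a block, 27 members were higher and 4 lower in TO-p against OT-p, and 32 and 6 in OT-d against OT-p, and no count of calls moved over 1.5 times. Of the 126 differences of at least 2-fold in single members, all kept direction and call on processed signals, series table values, quantile normalization, loess alone, no filter, no dye term, slide and replicate block. With all probes averaged 2 lost the call (Aldoc and Ero1l in the medium response of OT against WT), and without the b samples 1 did. Of the 50 that use WT-p, 6 lost the call and 1 reversed without replicates 1 and 3, and 3 lost it without replicates 2 and 4. Leaving out single samples ended the call in 7 of 1312 refits. Dim genes such as Ldhb and Epas1 are near background, which limits what can be read of them.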
